A study of Mus musculus with 8 samples.

Results

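The genes described here carry pyruvate into mitochondria, decide its fate there and run the citric acid cycle. A list of 34 mouse genes was taken by symbol, and all 34 were found among the 55487 gene identifiers of the deposited tables. They comprise the mitochondrial pyruvate carrier (Mpc1, Mpc2), the pyruvate dehydrogenase complex (Pdha1, Pdhb, Dlat, Dld, Pdhx), its kinases (Pdk1 to Pdk4) and phosphatases (Pdp1, Pdp2), pyruvate carboxylase (Pcx), 12 enzymes of the cycle, and 8 partners that move citrate and malate or convert them outside the cycle. Gene levels were measured by RNA sequencing of epididymal white fat (eWAT) from 8 male C57BL/6 mice made obese on a high-fat diet. The 4 AKO mice, labelled Slc16a1 -/-, carried floxed Slc16a1 alleles with the AP2-Cre transgene, and the 4 WT mice carried floxed Slc16a1 alleles without Cre. Slc16a1 encodes MCT1, which moves lactate and pyruvate across the cell surface. All mice thus shared the floxed alleles, the sex, the strain and the diet, and the AKO mice differed by Cre as well as by the intended deletion. AP2-Cre is driven by the promoter of Fabp4, a gene of fat cells that some macrophages and endothelial cells also express, and the fat pad holds many cells in which Cre is not expected. The sources used here give no age.

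Pyruvate, made from glucose or taken up as lactate, crosses the inner mitochondrial membrane through a carrier built from MPC1 and MPC2. Pyruvate dehydrogenase turns it into acetyl-CoA, and pyruvate carboxylase turns it into oxaloacetate. Kinases of the Pdk family switch the dehydrogenase off by phosphorylation, and the phosphatases switch it back on. In fat cells citrate made from both products leaves the mitochondrion and supplies carbon for fatty acid synthesis, and malic enzyme in the cytosol supplies NADPH for it.

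The comparison asks whether these transcripts differ in obese fat when the fat cell gene for MCT1 is targeted. None of the 34 genes passed the threshold. With limma on log2(TPM + 1) and adjustment over all 14172 genes tested, 0 were higher in AKO at an FDR below 0.05 (0.0212% of all genes tested) and 0 lower (0.00706%). In either direction 0.0282% of all genes tested were called. The smallest FDR among the 34 was 0.831. At an unadjusted p below 0.05 there was 1 gene, Pdhx, against 4.75% of all genes tested. AKO and WT values overlapped for each of the 34, while 2.44% of all genes tested had groups that did not overlap, 1.33% with AKO below WT and 1.11% with AKO above. Log2 differences (AKO minus WT) were below 0 for 24 of the 34 and above 0 for 10, with a median of -0.04. Over all genes tested 46.2% were below 0 and the median was 0.02. Without AKO mouse 3 the differences were below 0 for 16 of the 34. The median of the 34 was 0.0047 without AKO mouse 3 and -0.10 without AKO mouse 11, and lay between these with any other mouse left out. The 95% confidence interval of the difference lay within 0.5 log2 units of 0 for 30 of the 34, and reached further for Pdk4, Suclg2, Me1 and Slc25a1. All 34 had more than the 1 TPM used as a filter in each of the 8 mice, the lowest value being 3.34 TPM. TPM, the share of a library's transcripts after scaling to one common total, corrects for transcript length, so levels of different genes can be compared, but it keeps no read depth, and depth is unknown here.

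**Figure D1:**
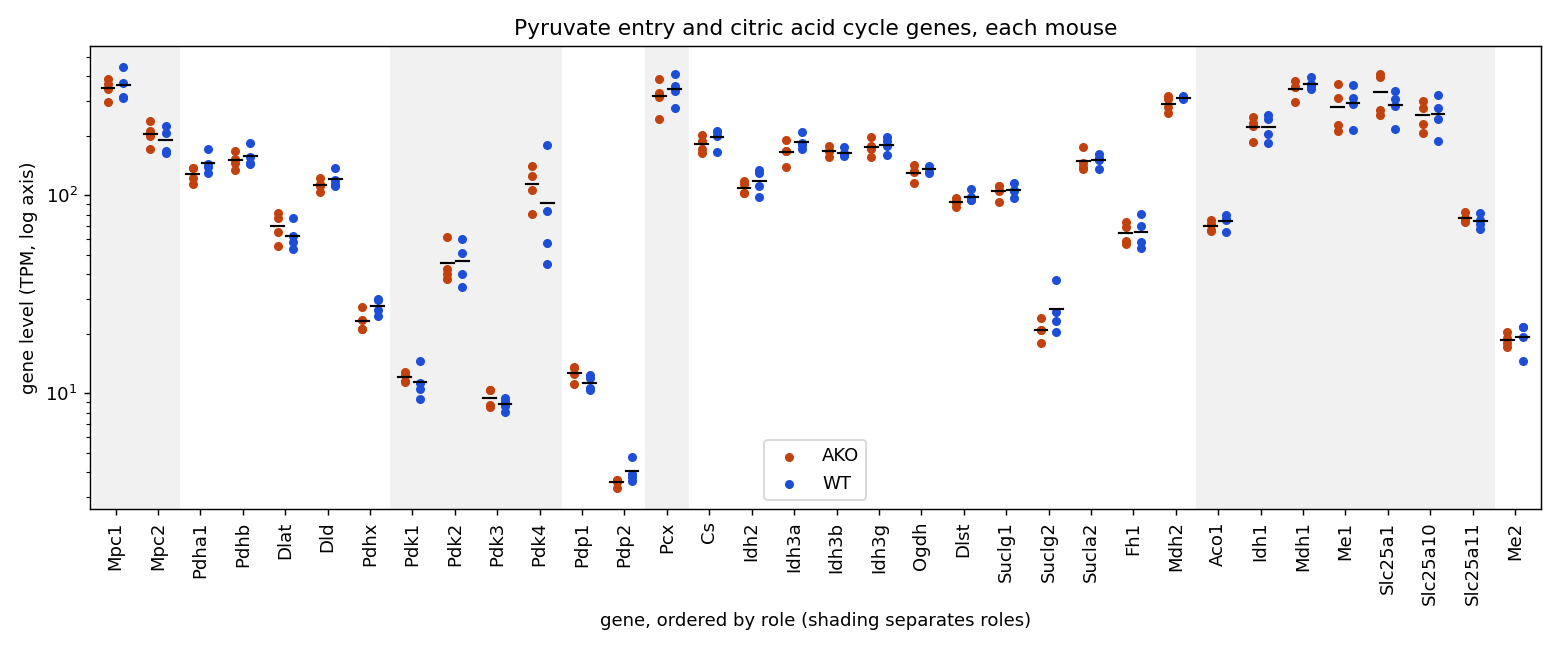
TPM of the 34 genes in each mouse on a log axis, with 4 AKO points left of 4 WT points for each gene and a black line at each group's mean. Levels run from Pdp2 at a mean of 3.80 TPM to Mdh1 at 355 TPM, and the AKO and WT points overlap for each gene.

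**Figure D2:**
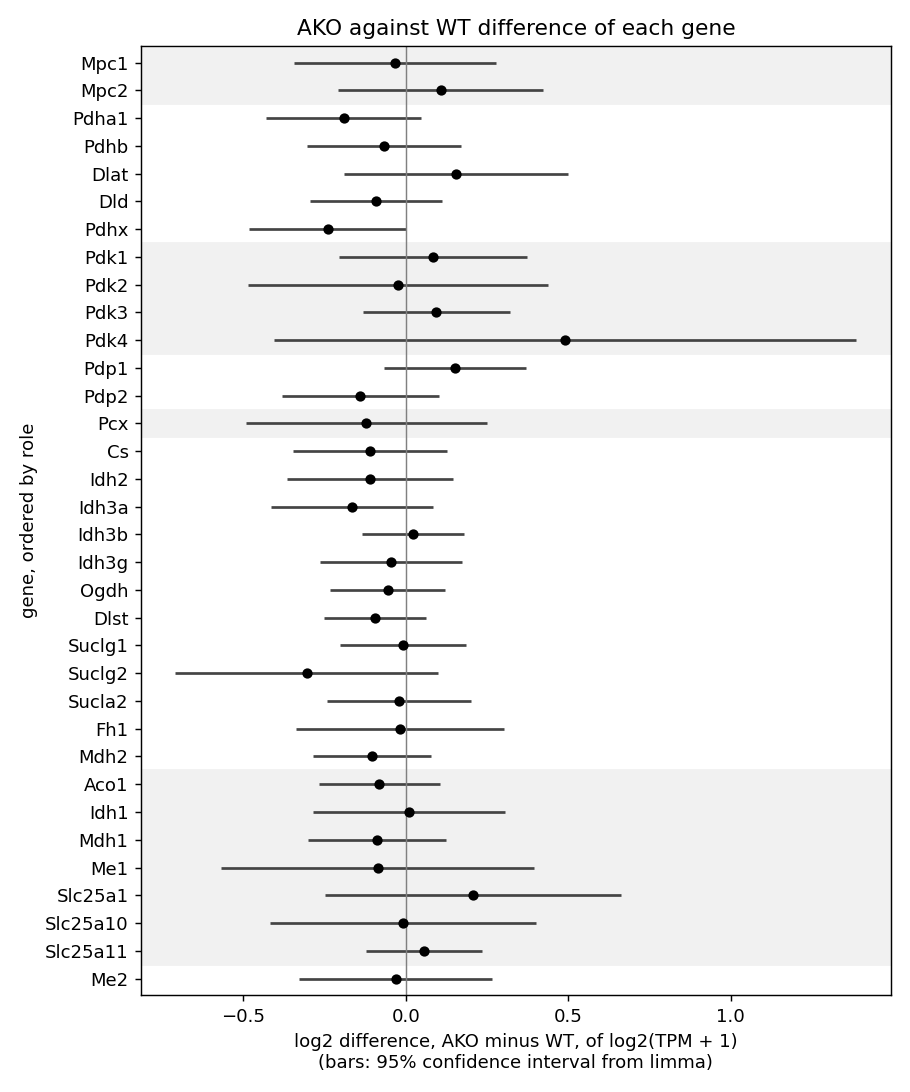
Log2 difference (AKO minus WT, of log2(TPM + 1)) of each gene, with its 95% confidence interval from limma. The interval of Pdk4, from -0.41 to 1.39, is the widest of the 34.

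Several facts of the libraries bear on these values. Total Slc16a1 was 22.4, 21.5, 27.1 and 25.03 TPM in AKO mice 3, 8, 9 and 11, against 23.35, 28.5, 15.7 and 17.65 TPM in WT mice 2, 3, 4 and 5 (limma FDR = 0.850). The targeted gene was therefore not lower in the libraries labelled AKO. Which part of it the deletion removes is not stated, so its total does not check the labels, and AKO and WT here mean the libraries so labelled. The fat markers fixed for the check were high in all 8 libraries, with a summed level of 9729 to 13829 TPM in AKO and 10210 to 17256 TPM in WT over 8 adipocyte genes. Log2 differences of these 8 were all negative, those of 9 macrophage genes were all positive, and none passed the threshold. The 4 adipose progenitor and fibroblast markers were likewise all positive without a call. Their sums were 1164.55 to 1472.84 TPM in AKO and 987.24 to 1162.62 TPM in WT. Of the 9 marker classes only this one had sums that did not overlap, by a small margin, and each of its 4 genes overlapped between the groups. Summed macrophage markers ranged from 3788 to 7112 TPM in AKO and from 1925 to 5713 TPM in WT, and WT mouse 4 had the lowest value of each of the 9. In a whole fat pad, fewer cells of a type and less RNA per cell cannot be told apart. Of the skeletal muscle markers, Acta1 reached 65.01 TPM in AKO mouse 8 and Mb 2.09 TPM in WT mouse 3, while Ckm, Myh1, Myh2, Myh4 and Tnnt3 stayed under 1 TPM in all libraries. Epididymal epithelium markers summed to at most 0.55 TPM in AKO and 7.57 TPM in WT.

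Both subunits of the pyruvate carrier were abundant, and neither separated the groups. Mpc1 had 296.5, 389, 365 and 345 TPM in AKO mice 3, 8, 9 and 11, against 309, 315, 445 and 368 TPM in WT mice 2, 3, 4 and 5. The 2 lowest values belong to AKO mouse 3 and WT mouse 2, and the highest to WT mouse 4. Its means were 349 ± 39.3 TPM in AKO and 359 ± 63.1 TPM in WT (SD, n = 4 each), a log2 difference of -0.03 with a 95% interval from -0.35 to 0.28 (limma FDR = 0.963). Mpc2, the obligate partner in the carrier, had 171, 211, 198 and 238 TPM in AKO and 163, 167, 208 and 224 TPM in WT. AKO mouse 11 was highest and WT mouse 2 lowest, and the groups overlapped over most of their range (log2 difference 0.11, 95% interval -0.21 to 0.42, limma FDR = 0.890). The ratio of Mpc1 to Mpc2 was 1.72 ± 0.186 in AKO and 1.89 ± 0.204 in WT (SD, n = 4 each), and in each mouse Mpc1 was the higher of the pair. Mpc1 shares 35.7% of its longest transcript with near-identical copies, of which Mpc1-ps reached at most 2.6 TPM.

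Within the pyruvate dehydrogenase complex, the E1 subunits and the shared E3 subunit stood well above the core protein Pdhx. Pdha1, the E1 alpha subunit that the kinases phosphorylate, had 114, 137, 123 and 138 TPM in AKO, against 144, 130.45, 172 and 139.9 TPM in WT. Of the 4 WT mice, 3 were above every AKO mouse, and WT mouse 3 fell inside the AKO range. The log2 difference of Pdha1 was -0.19 (SE 0.10, 95% interval -0.43 to 0.05, limma FDR = 0.831). Pdhx, which anchors E3 to the complex, had 21.25, 21.2, 23.4 and 27.25 TPM in AKO and 26.3, 24.7, 29.7 and 29.9 TPM in WT. AKO mouse 11 was the single AKO mouse inside the WT range. Pdhx was the gene with the smallest p of the 34, at a log2 difference of -0.24 (SE 0.11, 95% interval -0.48 to -0.00031, limma FDR = 0.831). Pdhb, the E1 beta subunit, averaged 150.1 ± 13.6 TPM in AKO and 158 ± 19.1 TPM in WT (SD, n = 4 each). Dld, the E3 subunit that also serves the 2-oxoglutarate and branched-chain complexes, averaged 113 ± 7.76 TPM in AKO and 121 ± 11.97 TPM in WT (SD, n = 4 each). Dlat, the E2 acetyltransferase, was the one subunit with a positive difference (0.15, FDR = 0.860), at 70.0 ± 12.03 TPM in AKO and 62.7 ± 10.2 TPM in WT (SD, n = 4 each). Its mice also ranked differently, with AKO mice 9 and 11 and WT mouse 3 highest.

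Among the kinases Pdk4 held the largest share of the family's TPM in 7 of the 8 mice, and it was the most variable of the 34 genes. Pdk4, the isoform induced by fasting and by fatty acids in muscle and liver, had 80.7, 126, 141 and 106 TPM in AKO. In WT it had 179.6, 83.0, 45.0 and 57.3 TPM. The WT group thus held both the highest value, in mouse 2, and the 2 lowest, in mice 4 and 5, a spread of 3.99 times, and all AKO values lay within it. The log2 difference was 0.49 with a 95% interval from -0.41 to 1.39 (limma FDR = 0.837), so differences of more than 2 times in favour of AKO were not excluded at this spread. The difference was 0.88 without WT mouse 2 (FDR = 0.800) and 0.22 without WT mouse 4 (FDR = 0.997). With an AKO mouse left out it ran from 0.38 (without mouse 9) to 0.64 (without mouse 3). Single mice of both groups thus moved its size, WT mice 2 and 4 the most. WT mouse 4, with the lowest Pdk4, had the highest summed adipocyte markers, at 17256 TPM, and the lowest summed macrophage markers, at 1925 TPM. WT mouse 2, with the highest Pdk4, had the next highest adipocyte sum, at 14253 TPM, and a macrophage sum of 3557 TPM. The part of cell makeup in the Pdk4 spread was not tested. Its upstream window, shown because Pdk4 varied most, is given from RefSeq (build GRCm38.p6, chr6:5496279-5496528, minus strand) as the 250 bases before the annotated start, 5′ to 3′, and holds none of the motifs described below.
Pdk4: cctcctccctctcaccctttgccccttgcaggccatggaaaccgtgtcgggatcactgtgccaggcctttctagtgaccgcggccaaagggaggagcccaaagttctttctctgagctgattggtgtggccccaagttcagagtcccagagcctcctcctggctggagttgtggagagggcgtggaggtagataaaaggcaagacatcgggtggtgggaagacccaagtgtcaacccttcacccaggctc

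The other kinases were lower. Pdk2, the most widely expressed isoform, had 37.7, 61.7, 42.35 and 40.3 TPM in AKO and 59.9, 34.7, 51.3 and 39.9 TPM in WT. One mouse of each genotype stood near 60 TPM, AKO mouse 8 and WT mouse 2, and the means were close (45.5 ± 10.96 TPM in AKO and 46.45 ± 11.4 TPM in WT, SD, n = 4 each). Pdk1, which responds to low oxygen, had 12.4, 11.5, 12.9 and 11.5 TPM in AKO and 14.6, 11.3, 10.6 and 9.39 TPM in WT. Pdk3 had 10.4, 10.4, 8.50 and 8.73 TPM in AKO and 8.05, 8.60, 9.15 and 9.48 TPM in WT. For both, the AKO range crossed the WT range, with limma FDR values of 0.909 for Pdk1 and 0.869 for Pdk3. As a share of the summed kinase TPM, Pdk4 took 62.5% ± 5.07 in AKO and 54.2% ± 13.0 in WT, and Pdk2 took 25.3% ± 3.74 in AKO and 31.7% ± 9.73 in WT (SD, n = 4 each). WT mouse 4 was the exception to the order, with 38.8% for Pdk4 and 44.2% for Pdk2.

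**Figure D3:**
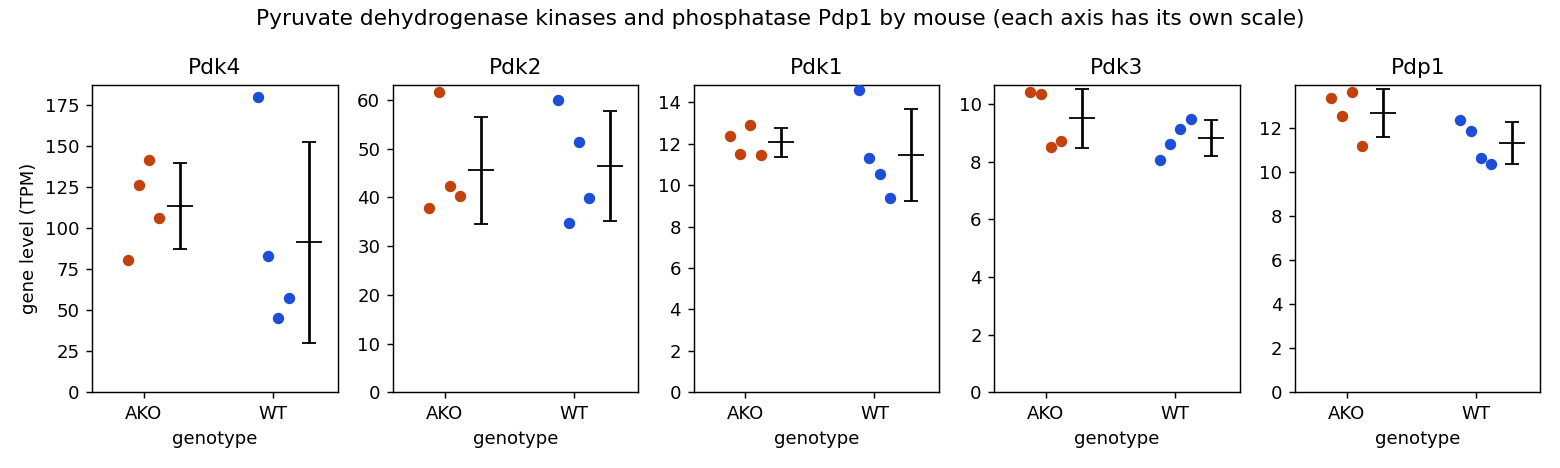
TPM of the 4 kinases and of the phosphatase Pdp1 in each mouse, AKO left and WT right, with mean and SD beside the points and a separate scale for each panel. In the Pdk4 panel the 4 AKO points, from 80.7 to 141 TPM, lie between the highest and the lowest WT points.

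The opposing phosphatases were low. Pdp1, the calcium-sensitive form, had 13.4, 12.6, 13.6 and 11.2 TPM in AKO and 12.4, 11.9, 10.7 and 10.4 TPM in WT. Pdp2, the insulin-sensitive form, had 3.66, 3.58, 3.66 and 3.34 TPM in AKO, against 3.94, 3.80, 4.80 and 3.63 TPM in WT. Differences had opposite signs, 0.15 for Pdp1 and -0.14 for Pdp2, each with an FDR of 0.831 in limma. Summed kinase TPM exceeded summed phosphatase TPM by 11.1 ± 2.02 times in AKO and 10.1 ± 3.97 times in WT (SD, n = 4 each). WT mouse 2 had 16.05 times and the other WT mice 7.50 to 8.76 times.

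Summed over its rows, pyruvate carboxylase was expressed at more than 2 times the level of Pdha1 in every mouse. Pcx had 243, 330.3, 312 and 386 TPM in AKO, against 338, 276, 409.6 and 355 TPM in WT. AKO mouse 3 was lowest and WT mouse 4 highest, and the other mice interleaved (log2 difference -0.12, 95% interval -0.49 to 0.25, limma FDR = 0.897). The ratio of Pcx to Pdha1 was 2.47 ± 0.278 in AKO and 2.35 ± 0.173 in WT (SD, n = 4 each). The ratio was also taken from a fixed row of each gene, that with the highest mean over the 8 mice, row 1 for Pcx. It then ran from 1.22 to 1.55 in AKO and from 0.787 to 0.971 in WT, without overlap. That ratio rests on Pcx row 1, described below, and how often other gene pairs separate in this way was not tested. Both the level and the comparison thus depend on how rows are combined.

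Below the gene total, the rows that make up Pcx divided differently in the groups, although no row passed. The tables hold 8 rows for Pcx, each standing for a transcript that the sources used here do not name, and rows are numbered here by their order under the gene identifier. Row 1 had 138, 212, 163 and 212 TPM in AKO mice 3, 8, 9 and 11, against 138, 119, 135 and 119.9 TPM in WT mice 2, 3, 4 and 5. AKO mouse 3 and WT mouse 2 were level, and every other AKO mouse was above every WT mouse. Row 4 had 62.8, 42.6, 52.5 and 73.8 TPM in AKO and 112, 72.55, 187 and 153 TPM in WT. In row 4 AKO mouse 11 was just above WT mouse 3, and every other AKO mouse was below every WT mouse. As a share of the Pcx total, row 1 made up 56.9%, 64.3%, 52.1% and 54.8% in AKO and 40.9%, 43.2%, 33.0% and 33.8% in WT. Row 4 made up 25.9%, 12.9%, 16.8% and 19.1% in AKO and 33.3%, 26.3%, 45.6% and 43.2% in WT. Neither share overlapped between the groups, which was so for 3.22% of all rows with a share. Both are parts of the same total, so they are not separate observations. The log2 difference was 0.48 for row 1 (SE 0.15) and -1.11 for row 4 (SE 0.29). With limma and adjustment over the 33323 rows tested, the FDR was 0.819 for row 1 and 0.796 for row 4. Both rows were singled out with their values in view, and how the quantification divided reads between rows was not tested.

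**Figure D4:**
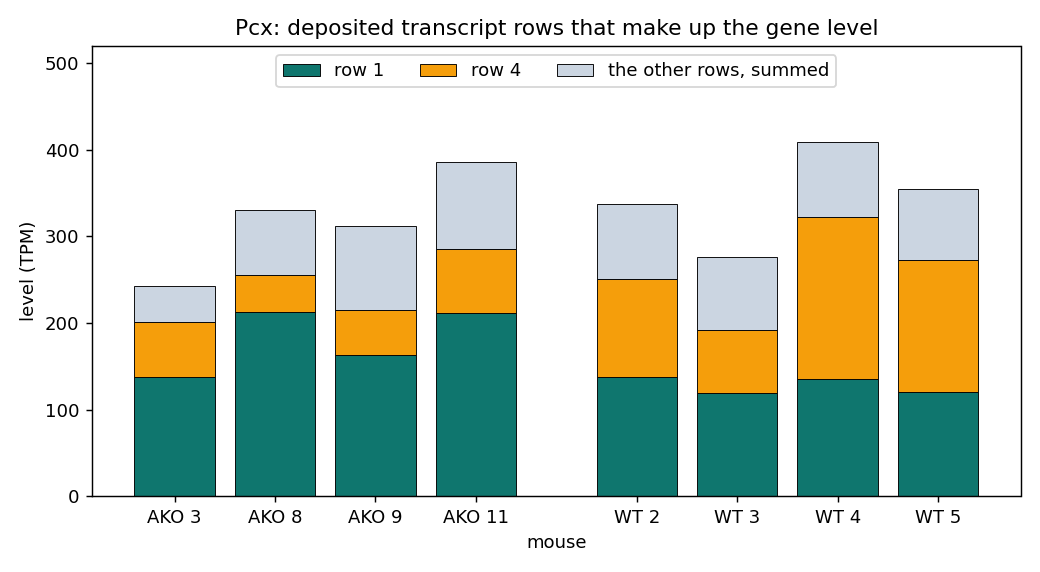
Pcx level in each mouse, stacked from the deposited transcript rows: row 1, row 4 and the other rows summed, in TPM. Row 1 takes 52.1% to 64.3% of the bar in AKO mice and 33.0% to 43.2% in WT mice, while the full bars of the groups overlap.

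RefSeq annotates separate starts for Pcx, and the 250 bases before 2 of them are shown because the rows diverged; which row, if any, begins at which start is not known from the files. Both lie on chromosome 19 of GRCm38.p6 on the plus strand, at chr19:4510222-4510471 and chr19:4594069-4594318, and are written 5′ to 3′ with the E-box CACGTG in capitals.
Pcx upstream start: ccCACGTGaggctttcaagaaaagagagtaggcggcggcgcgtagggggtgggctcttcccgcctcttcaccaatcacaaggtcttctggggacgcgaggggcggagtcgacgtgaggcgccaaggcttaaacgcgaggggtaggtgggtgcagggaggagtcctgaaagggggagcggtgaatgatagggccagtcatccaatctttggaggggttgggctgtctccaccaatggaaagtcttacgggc
Pcx downstream start: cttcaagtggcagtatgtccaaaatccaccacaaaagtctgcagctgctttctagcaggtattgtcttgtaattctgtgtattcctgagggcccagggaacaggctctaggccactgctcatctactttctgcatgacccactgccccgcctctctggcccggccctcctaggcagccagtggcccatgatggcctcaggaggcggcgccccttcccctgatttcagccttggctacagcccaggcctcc

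The upstream window holds 1 E-box near its 5′ end and the downstream window none. Windows of this kind were found for 31 of the 34 genes, 42 windows in all, several of them overlapping starts of 1 gene. The E-box was present in 7 of the 42 (16.7%), belonging to Ogdh, Pcx, Pdk2, Pdp2 and Slc25a1, and in 6.02% of all 32851 RefSeq windows of the same length. CACGTG reads the same on both strands. Of 4 other motifs searched on both strands, the ETS sequence CCGGAAG was in 2 of the 42 windows (Idh3g and Mpc1) and in 6.91% of all windows. The nuclear receptor half-site AAGGTCA, the forkhead sequence GTAAACA and the NRF1 core, a motif of 10 letters, were in none of the 42, and in 4.08%, 3.17% and 0.78% of all windows. Motifs did not overlap in the windows shown, and a match is a stretch of letters, not a measured site.

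Rows of the other genes gave no call either. The 34 genes have 208 rows, from 1 to 15 a gene, of which 86 passed the filter. With limma 0 of the 86 had an FDR below 0.05, against 0.021% of all rows tested. Unadjusted p-values below 0.05 were found for 6 (6.98%), against 5.56% of all rows tested, in Dlat, Fh1, Idh3a, Mdh1 and Pcx. The groups did not overlap for 2 of the 86 (2.33%), against 3.05% of all rows tested. The share of the gene's total did not overlap between groups for 6 of 85 rows (7.06%), against 3.22% of all such rows, and rows of 1 gene are not separate observations because their shares sum to the whole. Mdh1 row 2 was listed at 0, 0, 5.62 and 12.1 TPM in AKO, against 28.7, 31.2, 16.5 and 22.6 TPM in WT. That row is a small part of Mdh1, at most 9.10% of its total in any mouse (FDR = 0.796 over all rows). Idh3a row 3 had 12.9, 20.3, 20.03 and 8.95 TPM in AKO and 21.9, 27.4, 34.8 and 23.01 TPM in WT (FDR = 0.838 over all rows). In both rows every AKO mouse was below every WT mouse, and a value of 0 may mean that the estimate failed.

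Most cycle enzymes were well expressed. Over the 8 mice, 10 of 12 averaged between 95.5 TPM (Dlst) and 301 TPM (Mdh2), and the others were Fh1 at 65.0 TPM and Suclg2 at 23.8 TPM. Differences were negative for 11 of the 12, against 46.2% of all genes tested, and none passed (limma FDR 0.831 to 0.986). The count of negative differences was 7 without AKO mouse 3, 8 without WT mouse 4 and 10 to 12 with any other mouse left out. Cs, citrate synthase, which joins acetyl-CoA to oxaloacetate, had 165, 172, 189 and 201 TPM in AKO and 165, 199, 209 and 212 TPM in WT. The lowest values of the groups coincided, and 3 of 4 WT mice were above 3 of 4 AKO mice (log2 difference -0.11, 95% interval -0.35 to 0.13). Idh3a, the catalytic subunit of the NAD-dependent isocitrate dehydrogenase, had 139, 168, 167 and 190.3 TPM in AKO and 179.6, 171, 209.8 and 183 TPM in WT. AKO mouse 11 was the one AKO mouse above any WT mouse (log2 difference -0.17, limma FDR = 0.831). Its partner subunits were nearly level, Idh3b at 167 ± 8.37 TPM in AKO and 164 ± 8.09 TPM in WT, and Idh3g at 175 ± 17.0 TPM in AKO and 181 ± 15.7 TPM in WT (SD, n = 4 each).

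Dlst, the E2 subunit of the 2-oxoglutarate dehydrogenase complex, had 87.1, 91.5, 93.5 and 97.0 TPM in AKO and 95.1, 94.6, 107 and 97.8 TPM in WT. Again AKO mouse 11 alone entered the WT range. Ogdh, the E1 subunit of that complex, had 130.4 ± 10.8 TPM in AKO and 135 ± 5.30 TPM in WT (SD, n = 4 each). Mdh2, the mitochondrial malate dehydrogenase, had 260.0, 278, 307 and 317 TPM in AKO and 306, 313, 309 and 317 TPM in WT. The WT mice were close together, and AKO mice 3 and 8 lay below them while AKO mice 9 and 11 lay among them (log2 difference -0.10, limma FDR = 0.831). Idh2, the NADP-dependent mitochondrial isocitrate dehydrogenase, had 109 ± 7.85 TPM in AKO and 119 ± 17.1 TPM in WT. Fh1, fumarase, had 64.4 ± 7.88 TPM in AKO and 65.6 ± 11.95 TPM in WT (SD, n = 4 each for both).

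Succinyl-CoA synthetase has a shared alpha subunit (Suclg1) and alternative beta subunits that make ATP (Sucla2) or GTP (Suclg2). Suclg2 had 20.8, 24.15, 17.97 and 20.8 TPM in AKO, against 23.1, 20.5, 37.4 and 25.6 TPM in WT. WT mouse 4 stood clear of the other 7 mice, and the remaining values overlapped (log2 difference -0.31, 95% interval -0.71 to 0.10, limma FDR = 0.831). The difference was -0.14 without WT mouse 4 and -0.42 without WT mouse 3. Row 2 of Suclg2 held 10.87 TPM in WT mouse 4 and at most 2.32 TPM in any other mouse. On row 4, the largest, WT mouse 4 had 26.56 TPM and WT mouse 5 had 23.3 TPM. The log2 difference of row 4 was -0.19 (limma FDR = 0.841 over all rows), so the Suclg2 values depend on how rows are combined. Sucla2 was the dominant beta form, at 149 ± 17.6 TPM in AKO and 151 ± 10.8 TPM in WT (SD, n = 4 each). The ratio of Sucla2 to Suclg2 was 7.21 ± 1.26 in AKO and 5.92 ± 1.29 in WT, and the ranges overlapped. Suclg1 had a mean of 106 TPM in both groups.

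The carriers and enzymes that lead citrate and malate toward lipid synthesis varied widely between mice, and each genotype held high and low mice. Slc25a1, the citrate carrier, had 268, 255, 412 and 398 TPM in AKO, against 215, 308, 283 and 336 TPM in WT. AKO mice 9 and 11 were above all WT mice, and AKO mice 3 and 8 were below 3 of the 4 (log2 difference 0.21, 95% interval -0.25 to 0.66, limma FDR = 0.859). With 1 mouse left out the difference ranged from 0.078 without WT mouse 2 to 0.32 without AKO mouse 8, and it was 0.094 without AKO mouse 9 and 0.11 without AKO mouse 11. Me1, the cytosolic malic enzyme, had 212, 228, 311 and 367 TPM in AKO and 215, 291, 310.2 and 361 TPM in WT. Slc25a10, the dicarboxylate carrier, had 231, 207, 278 and 301 TPM in AKO and 189, 276, 243 and 322 TPM in WT. For all 3 genes AKO mice 9 and 11 and WT mouse 5 were above the mean of the 8 mice, and AKO mice 3 and 8 and WT mouse 2 were below it. Their mean deviation from the gene averages, in log2 units, was -0.24, -0.28, 0.24 and 0.34 in AKO mice 3, 8, 9 and 11, against -0.43, 0.07, -0.002 and 0.29 in WT mice 2, 3, 4 and 5. Slc25a10 was added with its values in view, so the likeness of the 3 genes is a description and was not tested. The 250 bases before the Slc25a1 start are shown because it alone of the 3 holds an E-box there, in capitals (RefSeq, GRCm38.p6, chr16:17928220-17928469, minus strand, 5′ to 3′).
Slc25a1: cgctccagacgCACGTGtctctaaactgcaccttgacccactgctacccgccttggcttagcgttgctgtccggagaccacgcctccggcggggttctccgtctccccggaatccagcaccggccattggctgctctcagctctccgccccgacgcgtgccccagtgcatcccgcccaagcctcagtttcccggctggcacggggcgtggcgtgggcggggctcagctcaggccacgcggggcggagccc

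Idh1, the cytosolic NADP-dependent isocitrate dehydrogenase, had 232, 186, 248 and 223 TPM in AKO and 184, 255, 204 and 243 TPM in WT. The group means were both 222 TPM, and the 95% interval of the log2 difference ran from -0.29 to 0.30. Mdh1, the cytosolic malate dehydrogenase, was the most abundant of the 34, at 344 ± 35.0 TPM in AKO and 365 ± 22.7 TPM in WT (SD, n = 4 each). Aco1, the cytosolic aconitase that doubles as iron regulatory protein, had 69.8 ± 4.17 TPM in AKO and 74.0 ± 6.03 TPM in WT. Slc25a11, the oxoglutarate carrier, had 76.9 ± 4.30 TPM in AKO and 74.0 ± 5.78 TPM in WT, and the mitochondrial malic enzyme Me2 had 18.6 ± 1.42 TPM in AKO and 19.3 ± 3.33 TPM in WT (SD, n = 4 each for these). Me2 was thus far below Me1 in both groups. Me1 shares 60.1% of its longest transcript with near-identical copies in GENCODE M21, and the one with the longest match reached at most 0.04 TPM.

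The highest and lowest levels fell mostly to a few mice of both genotypes. The 34 genes summed to 4187, 4678, 5016 and 5331 TPM in AKO mice 3, 8, 9 and 11, and to 4576, 4706, 5262 and 5115 TPM in WT mice 2, 3, 4 and 5. AKO mouse 3 had the lowest value of 16 of the 34 genes and WT mouse 2 of 7. WT mouse 4 had the highest value of 14 and AKO mouse 11 of 6. Summed adipocyte markers were 10363, 13244, 9729 and 13829 TPM in AKO mice 3, 8, 9 and 11, against 14253, 10210, 17256 and 14030 TPM in WT mice 2, 3, 4 and 5. WT mouse 4 thus led in these markers as well, while AKO mouse 9 had the lowest marker sum and a summed level of the 34 genes above that of 4 of the other mice. The part of cell makeup in the mouse-to-mouse spread was not tested.

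**Figure D5:**
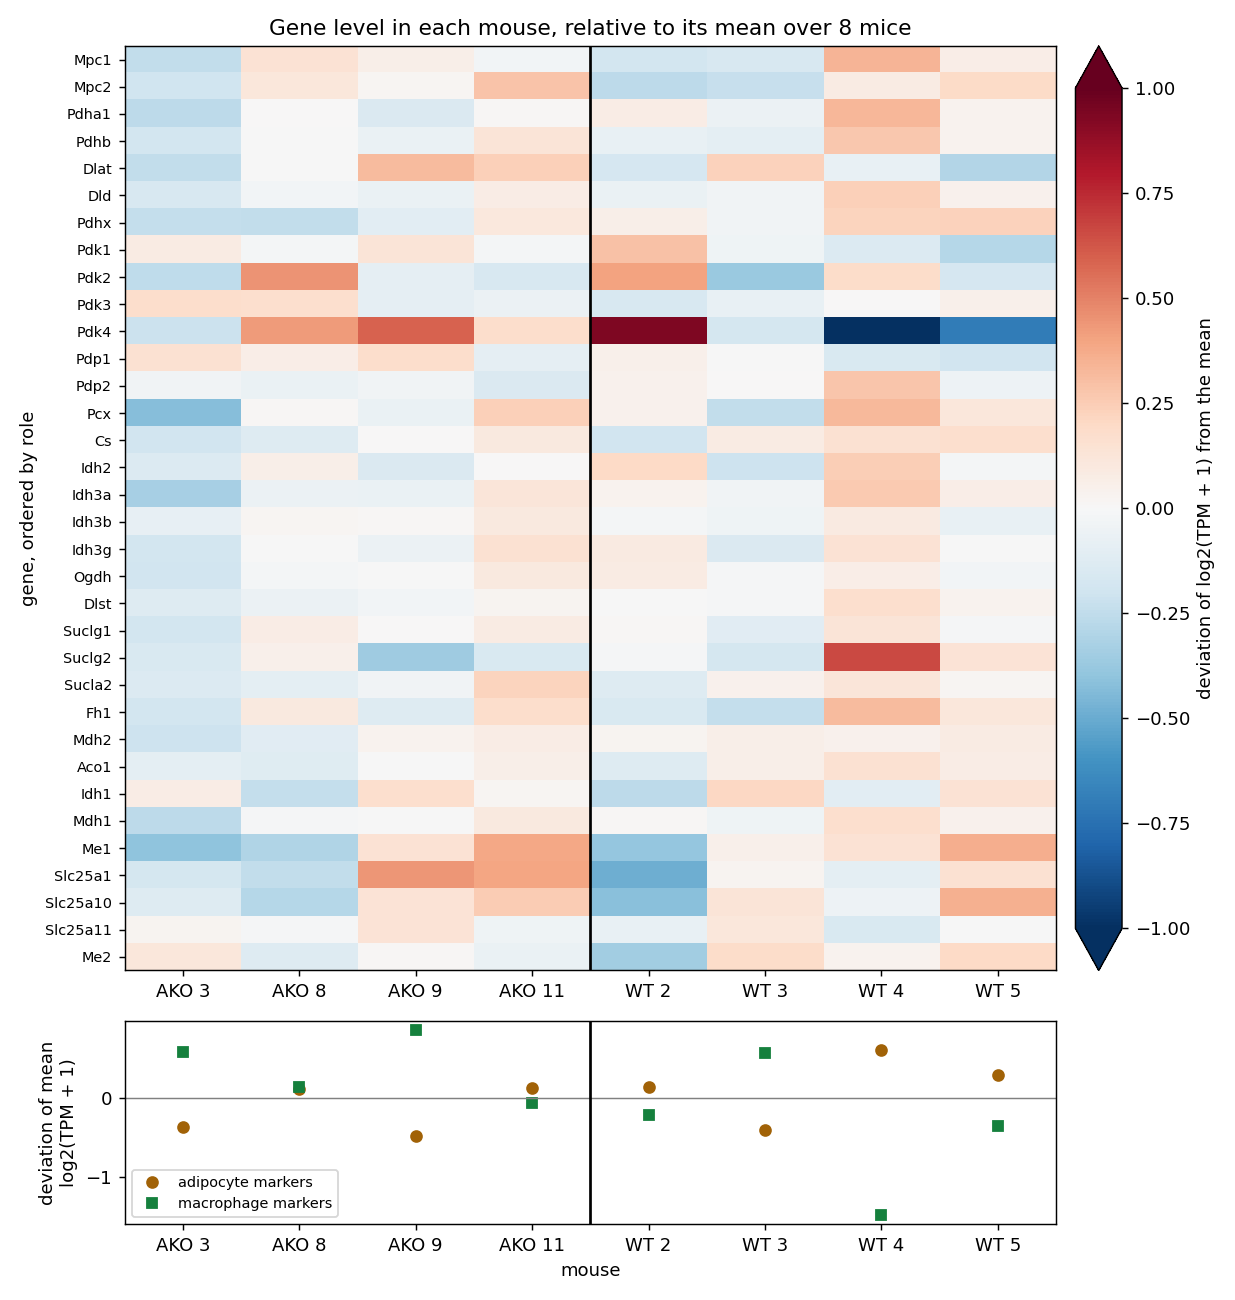
Upper panel: deviation of log2(TPM + 1) of each gene from its mean over 8 mice, AKO mice left of the black line and WT mice right of it. Lower panel: the same deviation for the mean of the adipocyte and of the macrophage markers; WT mouse 4, with the highest value of 14 genes, has the highest adipocyte and the lowest macrophage mean.

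Among other genes of the pathway none passed either. Of 27 related genes (succinate and lactate dehydrogenases, transaminases, lipoylation and acetyl-CoA enzymes and Slc16a1 among them), 27 were tested, 0 were higher and 0 lower in AKO with limma at an FDR below 0.05, and 0 had an unadjusted p below 0.05. Their median log2 difference was -0.03. The 4 with the smallest p were Got1, Nnt, Glud1 and Lipt2, each with an FDR of 0.831. Glud1, glutamate dehydrogenase, which feeds 2-oxoglutarate to the cycle, had 173, 165, 176 and 167 TPM in AKO and 157, 164, 161 and 157 TPM in WT. It was the one of the 27 whose groups did not overlap, by a small margin (log2 difference 0.09, SE 0.06). Over all genes tested, 2.44% had groups that did not overlap. Got1, the cytosolic aspartate aminotransferase, had 17.7 ± 2.98 TPM in AKO and 13.8 ± 4.88 TPM in WT (SD, n = 4 each). Nnt, the mitochondrial transhydrogenase, had 12.5 ± 4.87 TPM in AKO and 16.8 ± 4.95 TPM in WT. Lipt2, an enzyme of lipoylation, had 8.16 ± 1.16 TPM in AKO and 6.96 ± 1.30 TPM in WT (SD, n = 4 each for both genes). The succinate dehydrogenase subunits Sdha, Sdhb, Sdhc and Sdhd, which complete the cycle, had log2 differences of -0.06, -0.03, -0.08 and -0.04.

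Of 13 regulators of these genes, 12 were tested and 0 passed in either direction. At an unadjusted limma p below 0.05 there was 1, against 4.75% of all genes tested. That gene was Mlxipl, which encodes the glucose-responsive factor ChREBP. Mlxipl had 21.2, 16.2, 21.8 and 17.0 TPM in AKO, against 27.2, 23.9, 24.7 and 27.0 TPM in WT, with every AKO mouse below every WT mouse (log2 difference -0.42, SE 0.11, limma FDR = 0.831). It was the one of the 12 whose groups did not overlap. Over all genes tested, 2.44% did not overlap, 1.33% with AKO below WT. All 8 adipocyte marker differences were negative, like that of Mlxipl. Within AKO, mice 8 and 11 had the highest summed adipocyte markers (13244 and 13829 TPM) and the lowest Mlxipl. Within WT, mouse 3 had the lowest of both, with a marker sum of 10210 TPM. The part of cell makeup in the Mlxipl values was not tested. Foxo1, a forkhead factor that insulin restrains, had 16.06 ± 3.38 TPM in AKO and 19.6 ± 3.59 TPM in WT. Pparg, the master regulator of fat cells, had 146 ± 20.2 TPM in AKO and 165 ± 20.2 TPM in WT, and Ppara had 2.405 ± 0.511 TPM in AKO and 3.005 ± 0.730 TPM in WT (SD, n = 4 each for these). Ppargc1a, a coactivator of mitochondrial genes, stayed below the filter.

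Copies and overlapping genes limit some values. At 95% identity over at least 100 bases, 27 of the 34 genes share no stretch of their longest GENCODE M21 transcript with another gene. Besides Me1 and Mpc1 the largest share was 38.7% for Suclg2, whose copy reached at most 0.07 TPM. The shares of Pdha1 (18.5%) and Slc25a10 (11.3%) matched Map3k15 and Gm11788. These overlap the 2 genes on the opposite strand and reached at most 1.65 and 8.06 TPM. Another gene on the opposite strand overlaps 11 of the 34 (Mpc1, Pdha1, Pdk2, Pcx, Idh3b, Sucla2, Fh1, Mdh1, Me1, Slc25a10 and Slc25a11). No source used here says whether the quantification used strand, so reads of such pairs may not have been told apart.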

How the data were processed

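RNA was sequenced from epididymal fat of 8 mice, 4 AKO and 4 WT, grouped by their titles. Libraries came from an Illumina TruSeq kit, per the labels' protocols. The deposited values are TPM, made by the authors, in 152298 rows a library with several rows per gene. Per the submitters' processing notes, HISAT2, DESeq2 and mm9 were used, with no role or version stated. No source used here gives the quantifier, its annotation or the read depth. TPM is a share of each library, so a change in abundant genes moves all others, and no counting interval can be given. Each library had 13968 to 14884 genes at 1 TPM or more, and genes of the mitochondrial genome held 6.69% to 8.99% of TPM.

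Rows were summed per Ensembl identifier. Symbols came from GENCODE M21, and 55141 of 55487 identifiers matched. Another 401 rows that name no gene, holding 0.605% to 0.943% of TPM, were dropped. Tests covered genes reaching 1 TPM in 4 or more samples and used limma 3.58.1 (R 4.3.3) with a mean-variance trend on log2(TPM + 1), AKO minus WT, with Benjamini-Hochberg adjustment over all genes tested at an FDR of 0.05. This scale understates changes of low genes. Rows were tested in the same way. Copies were searched with BLAST 2.17.0. M21 and the RefSeq windows are on GRCm38, another build than the mm9 of the notes, so they serve for names, copies and sequences only.

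The members, lists and tests were chosen with earlier results of these data known. Values in every mouse are given for 14 listed members, for the 10 members with the smallest p and for Slc16a1, the targeted gene. They are also given for Slc25a10, chosen after its values were seen. Of each further list up to 4 genes with the smallest p are described, Glud1 and Mlxipl in every mouse and the others by mean and SD. Alternatives were another pseudocount, no filter, leaving out each mouse, other scaling, no mitochondrial genome genes, the row with the highest mean per gene, sample weights and a robust spread. The groups share only mouse number 3, on different animals. The p-values cover the spread between these mice.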

Additional observations from a re-analysis of the deposited data

Results flagged for a closer look

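Of 82 groups of 4 values examined (the genes and their ratios or shares, AKO and WT each), 1 held a mouse far from the others, where chance gives about 1 in 20. The ratio of summed kinase to summed phosphatase TPM was 16.05 in WT mouse 2, against 7.50 to 8.76 in the other WT mice. Its gap to the nearest mouse was 0.852 of the group's range, above Dixon's 95% critical value. Pdk4 was 179.6 TPM in that mouse.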

How the results depend on the processing

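No paired analysis was possible because the groups share only mouse number 3, on different animals. None of the 34 genes passed an FDR of 0.05 in limma under any of 15 alternatives, the lowest FDR being 0.332. The number of all genes called higher in AKO was 5 with a pseudocount of 0.1 and between 1 and 3 when 1 mouse was left out, and the number called lower was between 0 and 2. It was 1 higher without AKO mouse 3, AKO mouse 11 or WT mouse 2, 0 lower without AKO mouse 3 and 2 lower without WT mouse 4. Of the 34 genes, 21 kept the sign of their difference under all 15 alternatives. Idh1 turned to -0.0034 with median-ratio scaling and to -0.0014 without mitochondrial genome genes. Pcx turned to 0.48 with the row of highest mean per gene, which was row 1. With that choice the ratio of Pcx to Pdha1 was 1.41 in AKO and 0.885 in WT, and the groups no longer overlapped. The difference (AKO minus WT) was 0.526 against 0.125 for summed rows, and it rests on the same Pcx row 1. Signs also turned when 1 mouse was left out, over -0.101 to 0.074 for Mpc1, -0.177 to 0.106 for Pdk2, -0.223 to 0.0012 for Pcx, -0.076 to 0.091 for Idh1, -0.103 to 0.0082 for Idh3g, -0.048 to 0.050 for Suclg1, -0.100 to 0.020 for Sucla2, -0.101 to 0.086 for Fh1, -0.230 to 0.034 for Me1, -0.148 to 0.108 for Slc25a10, -0.153 to 0.029 for Me2, -0.0049 to 0.056 for Idh3b and -0.120 to 0.012 for Pdhb. Leaving out 1 mouse, an alternative for rows added after seeing the data, left 0 rows of these genes called, and the difference of Pcx row 4 then stayed between -1.36 and -0.91. Read depth is unknown, so small differences cannot be set against counting error.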
